A study of Mus musculus with 16 samples.

Results

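The troponin complex switches contraction on and off in striated muscle, and its 8 genes in the mouse were described here by their chromatin accessibility. They are Tnni1, Tnni2 and Tnni3, Tnnt1, Tnnt2 and Tnnt3, and Tnnc1 and Tnnc2, which make 8 of the 21951 protein-coding genes of the GENCODE vM21 annotation of GRCm38. They were chosen by name, with earlier results of these data known. For each gene, accessible sites were taken within 3 kb of any of its annotated transcription start sites and in its gene body extended by 10 kb on each side. The assay was ATAC-seq, which reads out where the transposase Tn5 can reach the DNA, and it covered liver, muscle, brown adipose tissue, white adipose tissue, spleen, heart, lung and kidney of male C57BL/6 mice. The mice were either fed, with free access to chow, or fasting, without food for a day. Tissue of several mice was pooled, so each of the 8 tissues had 1 library in each of the 2 states and 16 libraries were made in all. There were no replicates, and the labels do not say which muscle was taken.

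In the sarcomere, the troponin complex sits on the thin filament together with tropomyosin. Troponin C binds calcium, troponin I holds the filament off when calcium is low, and troponin T ties the complex to tropomyosin. Muscle fibres and heart cells draw on different genes for each subunit. Tnni2, Tnnt3 and Tnnc2 make the fast skeletal forms. Tnni1 and Tnnt1 make the slow skeletal forms, Tnni3 and Tnnt2 the cardiac forms, and Tnnc1 serves slow fibres and heart alike. The fetal heart is also known to use Tnni1.

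The genes lie in 5 places. Tnni1 (chr1:135779434-135810989, plus strand) and Tnnt2 (chr1:135836354-135852260, plus strand) are neighbours with Lad1 between them. Tnni2 (chr7:142441808-142444410, plus strand) and Tnnt3 (chr7:142498836-142516009, plus strand) form a similar pair. Tnnt1 (chr7:4504570-4516382, minus strand) and Tnni3 (chr7:4518305-4524229, minus strand) are so close that their extended bodies share 22 accessible elements. Tnnc1 (chr14:31208312-31211729, plus strand) and Tnnc2 (chr2:164777161-164779967, minus strand) stand alone. Each troponin I gene thus lies next to a troponin T gene.

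Each library's list held 298996 to 299529 peaks, and each peak was given a rank, the percentile of its -log10 p within its own list. A rank of 100 is the strongest peak of the library, and 0 means that no peak was listed, which is not the same as closed chromatin. Depth differed, with genome background tags (Tn5 insertions expected at a random place, solved from the fold and the p of each list) of 2.80 to 12.77 per library. Marker genes were checked within 500 bp of their principal starts, the starts of the transcripts that the annotation tags as principal. The 5 markers of skeletal muscle fibres (Ckm, Acta1, Myh4, Actn3, Mylpf) averaged a rank of 91.4 and 88.1 in fed and fasting muscle and at most 42.7 in any other library. The 5 cardiac markers (Myh6, Nppa, Myl7, Mybpc3, Ryr2) averaged 69.3 in fed heart and 43.6 in fasting heart, where Nppa and Myl7 had no listed peak, and at most 29.6 elsewhere. Within 3 kb of any start the separation was weaker. There the fibre markers averaged 93.8 and 92.6 in muscle but also 82.7 and 82.9 in white adipose tissue, and the cardiac markers averaged 60.8 in fasting heart against 62.6 in fasting kidney and 62.03 in fed spleen.

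RefSeq promoter windows on GRCm38.p6, which run from 250 bases before to 50 after a start, matched 6 of the 8 genes. The stretches before the start and outside annotated exons are shown for 5 of these 6 genes, those with a listed peak at the principal start in muscle or heart. For Tnnc1 only its own exons were left out, not those of other genes. Each label names a tissue with a listed peak at the start, but the summit need not lie in the stretch shown. Outside it lay the strongest muscle summits of Tnnc2 (chr2:164779954 fed, 164779948 fasting). So did the strongest heart summits of Tnnt2 (chr1:135836388 and 135836394) and Tnni3 (chr7:4522725 and 4522471), and that of Tnnt1 in fasting heart (chr7:4515964). Motif matches are in capitals and the rest in lower case, each stretch read 5′ to 3′ on the strand of the gene.
Tnnc2 (chr2:164779742-164779867, minus strand, peak in muscle): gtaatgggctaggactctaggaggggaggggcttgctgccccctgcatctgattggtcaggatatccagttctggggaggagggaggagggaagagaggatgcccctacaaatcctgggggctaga
Tnnt2 (chr1:135836084-135836353, plus strand, peak in heart): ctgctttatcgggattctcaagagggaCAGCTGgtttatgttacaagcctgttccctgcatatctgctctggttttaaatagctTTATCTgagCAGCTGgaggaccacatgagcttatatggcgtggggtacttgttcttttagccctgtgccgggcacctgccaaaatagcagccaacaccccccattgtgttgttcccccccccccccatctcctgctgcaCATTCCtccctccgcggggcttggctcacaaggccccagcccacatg
Tnni3 (chr7:4522529-4522694, minus strand, peak in heart): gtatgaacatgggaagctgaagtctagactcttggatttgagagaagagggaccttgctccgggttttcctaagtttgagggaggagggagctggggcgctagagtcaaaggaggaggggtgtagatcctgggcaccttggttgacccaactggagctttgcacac
Tnnt1 (chr7:4516005-4516225, minus strand, peak in heart): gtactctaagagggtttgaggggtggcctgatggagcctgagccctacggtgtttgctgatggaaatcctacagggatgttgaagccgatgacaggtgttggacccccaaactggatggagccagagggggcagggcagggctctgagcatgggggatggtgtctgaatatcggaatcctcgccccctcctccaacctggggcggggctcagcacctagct
Tnnc1 (chr14:31208062-31208311, plus strand, peak in heart): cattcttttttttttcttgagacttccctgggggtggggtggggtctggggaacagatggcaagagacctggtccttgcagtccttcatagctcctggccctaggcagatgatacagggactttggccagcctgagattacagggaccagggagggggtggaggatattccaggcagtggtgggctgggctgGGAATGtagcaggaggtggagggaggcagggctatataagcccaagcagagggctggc

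Matches to 6 motifs were searched on both strands. CAGCTG is an E-box bound by myogenic factors. CATTCC is the core of the MCAT element, which TEAD factors bind. TATAAA is the core promoter element found a short way before many starts. AGATAA is a site of the blood and heart factors of the GATA family. The MEF2 site and the CArG box, which SRF binds, were searched by their usual consensus. Tnnt2, the cardiac troponin T gene, had 2 windows of 300 bases. The one shown had 2 CAGCTG matches, 1 CATTCC match and 1 AGATAA match, and the other had none of the 6 motifs. The strongest heart peaks of Tnnt2 began at chr1:135836314 (fed) and chr1:135836313 (fasting), after all of these matches. Among all 32851 RefSeq promoter windows, 16.3% held CAGCTG, 14.7% CATTCC, 11.2% AGATAA and 13.6% TATAAA. Both Tnni1 windows held the same CAGCTG match, 68 to 63 bases before the first of their starts. The Tnnc1 window held 1 CATTCC match, 58 to 53 bases before the start on the opposite strand. The Tnnt1 window held 1 TATAAA match, 30 to 25 bases before the start, which falls partly outside the stretch shown. Tnnc2 and Tnni3 held none of the 6 motifs in theirs, and none of the members' windows held the MEF2 site or the CArG box, which were found in 3.19% and 1.63% of all windows. The overlap of these matches with one another was not scored, and a match is a description of letters only.

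At principal starts, ranked by -log10 p, the isoform genes split between muscle and heart. The 3 fast genes ranked above 90 in both muscle libraries, matched elsewhere by Tnni2 in fed spleen alone. The cardiac genes Tnni3 and Tnnt2, the slow gene Tnnt1 and the shared Tnnc1 ranked highest in heart. Tnni1 had no listed peak there in muscle or heart. Ranked by fold instead, all 3 fast genes stayed above heart in muscle, but only Tnni3 stayed above muscle in heart by the margin used later. By fold, Tnni2 ranked higher in fed spleen (86.1) and in lung (83.7 and 80.8) than in muscle (65.8 and 56.5), and Tnnc2 ranked 79.2 and 72.6 in brown adipose tissue against 73.2 and 79.3 in muscle. In whole tissue, fewer open cells of a type and less opening per cell cannot be told apart. This narrower window of 500 bp around principal starts was chosen after the wider one had been seen, because starts of other genes lie in the 3 kb windows of 4 of the 8 genes (Syt8 for Tnni2, Gm15873 for Tnni3, Prr33 for Tnnt3 and Nisch for Tnnc1).

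**Figure D1:**
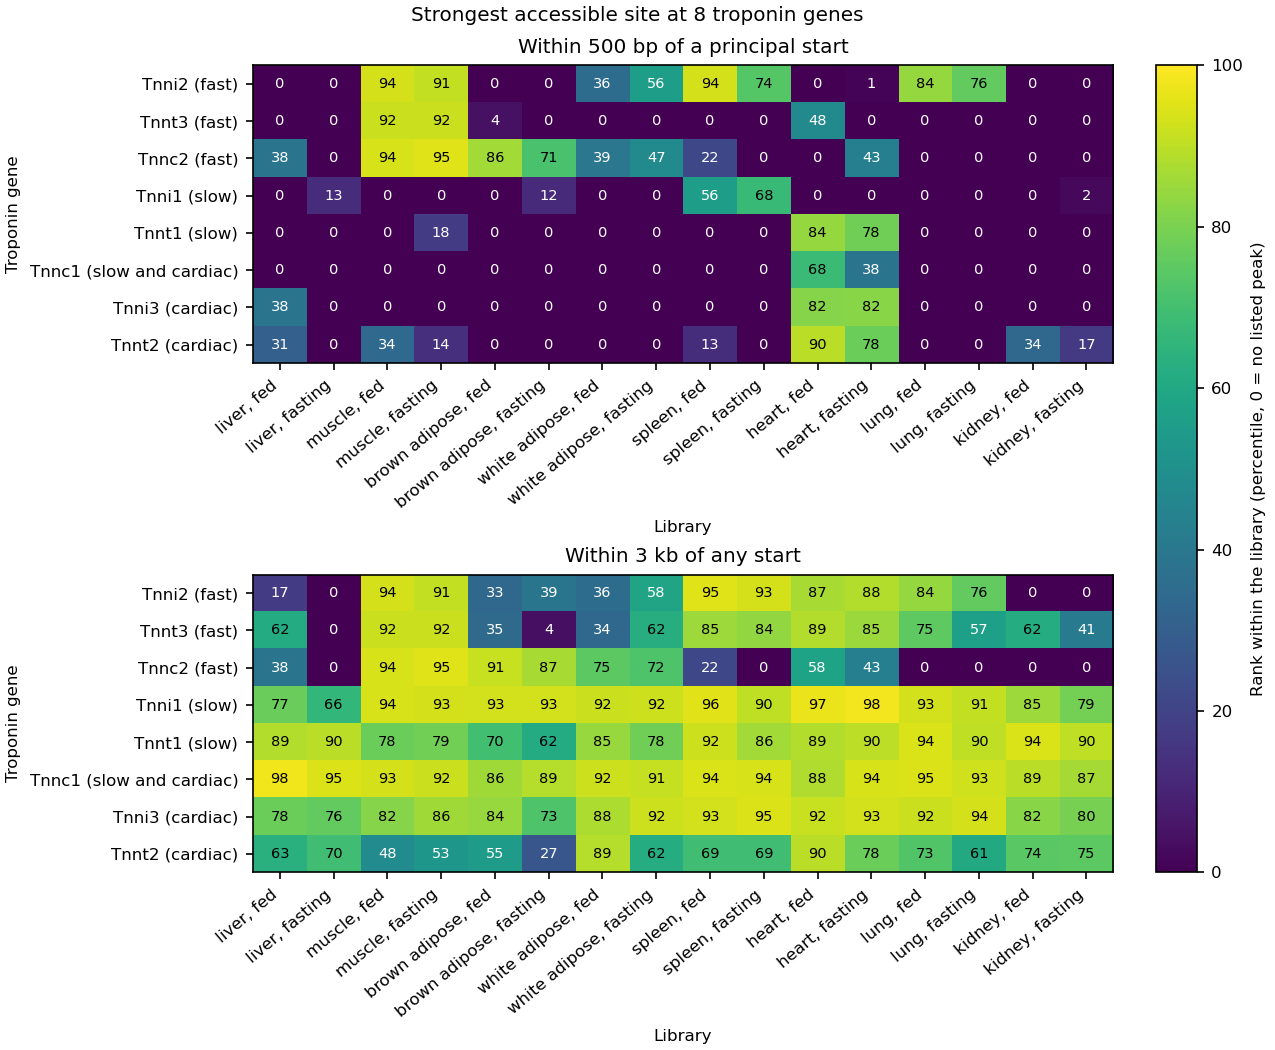
Heat maps of the rank (percentile within the library, colour and printed number) of the strongest peak of each troponin gene in each of the 16 libraries, within 500 bp of a principal start (top) and within 3 kb of any start (bottom). In the top map the fast genes reach 91 to 95 in muscle and the cardiac genes 78 to 90 in heart, while in the bottom map most genes reach high ranks in most tissues.

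Tnnt3, fast troponin T, was listed in 4 of the 16 libraries. Its principal starts ranked 92.1 in fed and 91.9 in fasting muscle. Outside muscle, a peak was listed only in fed heart, at 47.9, and in fed brown adipose tissue, at 4.39. The muscle summits lay 148 and 151 bp before the start and held 467 and 735 tags, which is 73.1 and 69.6 times the genome background of those libraries. The heart peak held 30 tags, 6.10 times its background.

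Tnnc2, fast troponin C, ranked 94.0 in fed and 95.1 in fasting muscle. Brown adipose tissue had 86.3 fed and 71.3 fasting, and white adipose tissue 39.5 fed and 47.3 fasting. Single libraries of heart (fasting, 43.2), liver (fed, 38.4) and spleen (fed, 21.5) had a listed peak, and lung and kidney had none. The strongest summits lay at different sites in muscle and in fat. Muscle summits lay 213 and 207 bp before the principal start, close to the other annotated start, whereas those of brown adipose tissue lay 436 and 434 bp after it and those of white adipose tissue 449 and 362 bp after it, in an intron. Muscle listed that intronic element too, at 67.7 fed and 81.8 fasting, whereas the element of the muscle summits was muscle-only. Brown adipose depth differed between states, with 12.77 background tags fed and 6.76 fasting, and the brown adipose peak held 361 and 48 tags, 28.3 and 7.10 times the background. Beside these values, the muscle fibre markers Ckm, Acta1, Myh4, Actn3 and Mylpf averaged 23.7 to 28.9 in the 4 adipose libraries, with Myh4 and Mylpf at 0 in all of them and 2 or 3 of the 5 listed in each. The same mean was 0 to 23.8 in liver, spleen, lung and kidney. Their part in the adipose signal was not tested.

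Tnni2, fast troponin I, ranked 93.7 in fed and 90.9 in fasting muscle. It also had listed peaks in spleen (93.7 fed, 73.7 fasting), lung (84.2 and 76.2) and white adipose tissue (35.5 and 55.8), so its muscle values did not stand above every other tissue. Muscle summits lay 87 and 90 bp before the outer principal start and held 499 and 713 tags, 78.1 and 67.5 times the background. The fed spleen summit lay 442 bp after the inner principal start, and those of lung 421 and 430 bp after it. The fasting spleen summit lay 93 bp after the inner start, in an intronic element that muscle listed as well, at 88.8 fed and 85.8 fasting, and that fed spleen listed at 83.4.

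The cardiac genes gave the opposite picture. Tnni3, cardiac troponin I, ranked 81.8 in fed and 82.1 in fasting heart, and was listed elsewhere only in fed liver, at 38.4 with 12 tags. Tnnt2, cardiac troponin T, ranked 89.6 in fed and 77.6 in fasting heart. Its other listed values were 34.1 and 13.5 in muscle, 33.7 and 16.9 in kidney, 30.6 in fed liver and 13.2 in fed spleen, all below both heart values. The heart summits of Tnnt2 lay 34 and 40 bp after the start and held 89 and 78 tags. For both genes the 2 heart ranks by -log10 p lay at least 10 points above the 2 muscle ranks, as for 4.95% of all protein-coding genes. Ranked by fold, the Tnnt2 values overlapped (68.2 and 15.4 in heart, 47.7 and 27.8 in muscle).

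Tnnt1, slow troponin T, ranked higher by -log10 p at its principal start in heart than in muscle. It ranked 84.1 in fed and 78.4 in fasting heart, 17.7 in fasting muscle and 0 in fed muscle, and had no listed peak in the other 12 libraries. Ranked by fold, Tnnt1 stood at 39.98 and 30.9 in fed and fasting heart and at 0 and 29.5 in fed and fasting muscle. Tnnc1, the slow and cardiac troponin C, was listed in heart alone, at 68.2 fed and 38.4 fasting, with summits 62 and 75 bp before the start that held 64 and 60 tags. Tnni1, slow troponin I, had no listed peak at its principal starts in muscle or heart, and its highest values were 67.9 in fasting and 55.9 in fed spleen. The 4 principal starts of Tnni1 lie in the middle of the annotated gene, well after its first start.

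**Figure D2:**
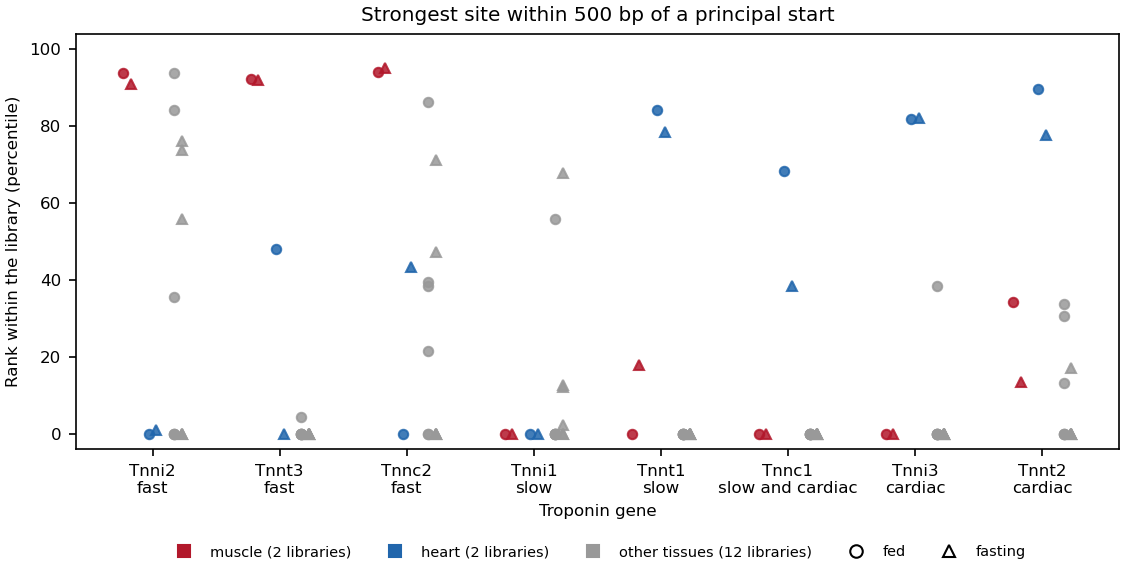
Rank (percentile within the library) of the strongest peak within 500 bp of a principal start, for each troponin gene, with muscle libraries in red, heart libraries in blue and the 12 libraries of the other tissues in grey; circles are fed and triangles fasting. Both muscle points lie above 90 for each fast gene, with fed spleen level with them for Tnni2, and Tnnt1, Tnnc1, Tnni3 and Tnnt2 have both heart points above both muscle points.

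Muscle and heart were then set against each other by a fixed margin, with a gene called where both libraries of one tissue lay at least 10 points above both libraries of the other. At principal starts, all 3 fast genes (Tnni2, Tnnt3, Tnnc2) were higher in muscle by this margin, a call that 3.48% of all protein-coding genes received. Tnnt1, Tnnc1, Tnni3 and Tnnt2 were higher in heart, a call that 4.95% received. The mean difference (muscle minus heart) was 91.8 points for Tnni2, 72.9 for Tnnc2 and 68.1 for Tnnt3, and it was -81.9 for Tnni3, -72.4 for Tnnt1, -59.8 for Tnnt2 and -53.3 for Tnnc1. Within 3 kb of any start, 1 gene was higher in muscle (Tnnc2, by 43.9 points, background 3.81%) and 1 in heart (Tnnt2, -33.1 points, background 6.29%). Fewer genes were thus called in the wider window. These differences were described and not tested.

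The call by margin depended on the column ranked. Ranked by fold over the expected tags at principal starts, the 3 fast genes were again higher in muscle (background 3.97%), whereas of the 4 heart genes only Tnni3 was still higher in heart (background 3.96%). Tnnt1 ranked 39.98 and 30.9 in heart against 0 and 29.5 in muscle, Tnnt2 68.2 and 15.4 against 47.7 and 27.8, and Tnnc1 7.91 and 0.358 against 0 and 0. By fold within 3 kb of any start, Tnnc2 was higher in muscle (background 4.03%), but the 2 genes higher in heart (background 5.2%) were the fast genes Tnni2 and Tnnt3. Tnni2 ranked 84.8 and 83.7 in heart against 65.8 and 56.5 in muscle there. Tnnt3 ranked 82.4 and 76.7 in heart against 60.1 and 59.8 in muscle.

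The other genes of the contractile apparatus were counted by the same margin at principal starts. Of 10 fast skeletal genes, 10 were higher in muscle and 0 in heart, with a median difference of 75.9 points that ran from 95.4 for Myl1 down to 31.9 for Mybpc2. Of 10 slow skeletal and cardiac genes, 4 were higher in heart, with the lowest value at Myl2 (-76.5), and 1 in muscle (Mybpc1, 90.05 points), and the median was -21.5. Of 9 cardiac genes, 5 were higher in heart and 0 in muscle, with a median of -28.6 and values from -0.930 for Myl4 to -77.0 for Mybpc3. Of 12 genes shared by striated muscle, 2 were higher in muscle and 0 in heart, with a median of 9.36 and values from 27.2 for Acta1 to 0 for Neb, which had no listed peak there. The median over all protein-coding genes was 0 and that over the 8 troponin genes was -26.7.

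A second question was whether muscle and heart together stood above the other 6 tissues. For each gene, the mean rank of muscle and heart was compared with that of every other choice of 2 tissues, 28 choices in all, in a one-sided exact permutation test whose smallest possible p is 0.0357. Within 3 kb of any start, Tnni1 (95.7 against 87.4, difference 8.26 points) and Tnnt3 (89.4 against 50.05, 39.3 points) reached that smallest p. Those are 2 of the 8 genes, where 2.76% of all genes reached it, and over all 21951 genes no p stayed below 1 after Benjamini-Hochberg adjustment. Tnni2 and Tnnc2 had differences of 45.6 and 40.4 points with exact permutation p = 0.107 and 0.143. For Tnni2 the mean rank was 92.3 in muscle, 87.7 in heart and 94.3 in spleen. For Tnnc2 it was 94.5 in muscle, 50.6 in heart and 89.2 in brown adipose tissue. Tnnc1, Tnni3, Tnnt1 and Tnnt2 differed by 0.037, 2.56, -1.33 and 1.48 points. At principal starts 2 genes reached the smallest p, Tnnt3 (57.6 points) and Tnnt1 (45.0 points), against 2.96% of all genes. Each was high in only 1 of the 2 tissues. Tnnt3 averaged 92.0 in muscle and 23.9 in heart, and Tnnt1 averaged 8.86 in muscle and 81.2 in heart. Their means over the other 6 tissues were 0.365 and 0. The difference of Tnni1 was -12.6. In extended gene bodies the same 2 genes as in the 3 kb windows, Tnni1 (4.14 points) and Tnnt3 (30.1 points), reached it, against 2.71% of all genes.

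Other genes of striated muscle were counted in the same test. In the 3 kb windows the smallest p was reached by 1 of 10 fast skeletal genes (Atp2a1, 49.97 points), 2 of 10 slow skeletal and cardiac genes (Myoz2 with 78.6 points), 1 of 9 cardiac genes (Actc1, 68.0 points) and 5 of 12 shared genes, of which Tcap had 72.5 points. The lowest differences in these lists were -2.37 for Actn3, -3.86 for Myh7b, -1.98 for Ryr2 and -1.49 for Tpm1. The median differences were 14.6, 11.2, 10.1 and 26.9 points in that order, against 5.41 over the 8 troponin genes and 0 over all genes. In the fasting test described below for the members, 1 gene of these lists passed in the 3 kb windows (Myh7b, -3.06 points, exact permutation p = 0.0469).

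The 3 kb windows showed which neighbours lie close. The window of Tnnc1 ranked 85.7 to 98.0 in all 16 libraries. Its strongest site lay 1391 bp before the Tnnc1 start and 95 bp from a start of Nisch, in an exon of that gene. With each peak given only to its nearest start, Tnnc1 was listed in heart alone, at 68.2 fed and 56.4 fasting. The extended body of Tnnc2 ranked 95.7 to 99.9 in all libraries, and its strongest site outside spleen lay 79 bp from a start of Snx21. The window of Tnni3 ranked 72.6 to 94.6 through 2 elements listed in all 16 libraries, 1 of them 28 bp from a start of Gm15873 in coding sequence of Dnaaf3 and the other 211 bp before the outermost Tnni3 start. The window of Tnnt1 ranked 61.7 to 94.4, through an intronic element 150 bp before an inner start that was listed in all 16 libraries and was strongest in lung and kidney (both 94.4 fed and 90.3 fasting).

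To see the sites one by one, the summits of all 16 lists were chained into elements wherever neighbours lay within 150 bp, which gave 1016736 elements genome-wide and 257 in the extended bodies of the 8 genes. Of the 257, 30 (11.7%) were listed in both muscle libraries and in no other, a pattern held by 1.84% of all elements. Another 12 (4.67%) were listed in both heart libraries and in no other, against 0.599% of all elements. For the remaining tissues the counts were 0 for liver (background 1.56%), 1 for brown adipose tissue (0.906%), 0 for white adipose tissue (0.424%), 1 for spleen (1.81%), 3 for lung (1.26%) and 2 for kidney (2.68%). All 16 libraries listed 15 of the 257 elements, against 3.11% genome-wide. None of the 257 was listed in all 4 muscle and heart libraries and nowhere else, a pattern of 0.237% of all elements.

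**Figure D3:**
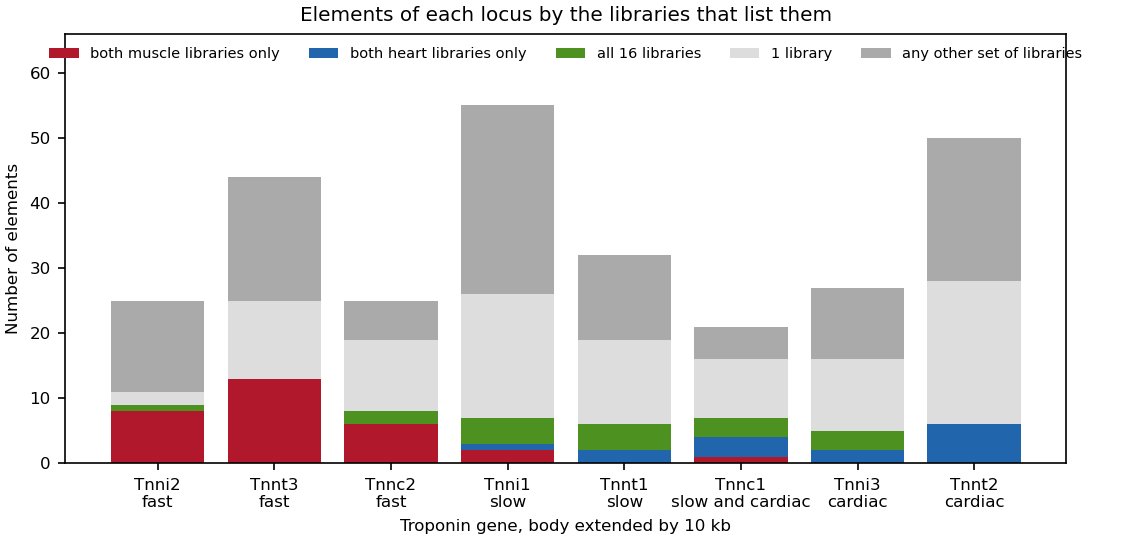
Number of elements in the extended body of each troponin gene, split by the libraries that list them (both muscle libraries only in red, both heart libraries only in blue, all 16 in green, a single library in light grey, any other set in dark grey). The muscle-only elements lie almost all at the fast genes on the left, and heart-only elements at the slow and cardiac genes; Tnni3 and Tnnt1 share 22 elements, which are counted in both bars.

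The muscle-only and heart-only elements were divided by isoform. The 3 fast loci held 27 of the 30 muscle-only elements among their 94 elements, and none of the heart-only ones. The 5 slow and cardiac loci held all 12 heart-only elements among their 163 elements, and 3 muscle-only ones. Tnnt3 had 13 muscle-only elements, Tnni2 had 8 and Tnnc2 had 6. Tnnt2 had 6 heart-only elements, Tnnc1 had 3, and Tnni1 had 1, while 2 more lay in the extended bodies shared by Tnni3 and Tnnt1. Of the 30 muscle-only elements 18 were intergenic, and their highest ranks ran from 12.9 to 95.1 with a median of 61.9. Being listed by a single tissue depends on each list's depth and length, and the shallow lists of liver and spleen can miss weak sites. Deep lists can miss them too, since they end at a stricter q. The largest q kept was 5.48e-06 in fed brown adipose tissue against 0.0189 in fed liver.

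At Tnnt3 the muscle elements formed a group behind the gene. Elements 2594, 2829 and 3003 bp after its last start ranked 84.7, 81.4 and 75.9 in fed muscle and 86.8, 83.3 and 81.8 in fasting muscle. The first was also listed in fasting spleen at 3.10 and the second in fed liver at 61.6 with 15 tags, while the third was muscle-only. In front of the gene, in Prr33, the sites were shared with heart. An element 1869 bp before the first start ranked 89.6 and 89.2 in fed and fasting muscle, 88.6 and 80.4 in heart, and 85.4 and 83.8 in spleen. An element 875 bp before that start ranked 88.0 and 86.3 in muscle and 88.5 and 84.9 in heart. In heart these 2 elements held 51 to 60 tags, 8.73 to 12.2 times the background, against 391 to 635 tags and 54.7 to 64.6 times in muscle, so a like rank in the 2 tissues did not mean a like height.

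Tnnc2 carried a muscle-only element 2215 bp before its outer start that ranked 92.0 fed and 90.6 fasting. An intronic element 677 bp after the principal start was listed in muscle (85.4 and 90.0), brown adipose tissue (91.4 and 86.9) and white adipose tissue (74.9 and 72.4) and in none of the other 10 libraries. Both are shown over up to 201 bases about the summit, on the minus strand.
Tnnc2 (chr2:164782082-164782282, muscle-only): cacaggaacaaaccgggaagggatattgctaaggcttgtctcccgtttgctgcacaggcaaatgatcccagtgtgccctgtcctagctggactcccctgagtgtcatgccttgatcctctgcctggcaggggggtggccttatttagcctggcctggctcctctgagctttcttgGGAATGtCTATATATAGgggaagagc
Tnnc2 (chr2:164778964-164779164, muscle and both fats): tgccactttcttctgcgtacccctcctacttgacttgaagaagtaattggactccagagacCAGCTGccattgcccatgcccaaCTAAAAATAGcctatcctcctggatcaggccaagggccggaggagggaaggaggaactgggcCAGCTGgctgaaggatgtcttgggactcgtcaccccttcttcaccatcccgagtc

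In the muscle-only element the capitals mark a CATTCC match on the opposite strand and a MEF2 site. In the intronic element they mark 2 CAGCTG matches and 1 MEF2 site. Among windows of the same length about every 30th summit of the fed muscle list (9981 windows), 17.1% held CAGCTG, 10.5% CATTCC and 3.46% the MEF2 site.

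Tnni1 had its most distinctive site in front of its first start. An element 2192 bp before that start was listed in muscle (93.8 fed, 93.5 fasting), brown adipose tissue (93.1 and 93.3) and white adipose tissue (86.0 and 92.3), and in none of the other 10 libraries, heart included. It held 250 and 465 tags in fed and fasting muscle, 627 and 158 in brown adipose tissue, and 157 and 102 in white adipose tissue. The tissues that shared it were thus the same 3 as for the Tnnc2 intron. It holds none of the 6 motifs and is printed on the plus strand.
Tnni1 (chr1:135777142-135777342, muscle and both fats): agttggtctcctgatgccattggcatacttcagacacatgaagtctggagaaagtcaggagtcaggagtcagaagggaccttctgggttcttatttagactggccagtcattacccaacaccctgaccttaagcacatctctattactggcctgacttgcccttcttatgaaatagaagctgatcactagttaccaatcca

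The element that gave Tnni1 its high rank in heart was another. It lay in an exon 1638 bp before an inner start, was listed in all 16 libraries, and ranked 97.1 and 98.3 in heart, 95.7 and 90.4 in spleen, and 66.1 to 77.2 in liver. Its tags over background were 15.7 and 15.4 in heart, 24.4 and 22.2 in muscle, 26.9 and 17.3 in spleen and 7.45 to 7.86 in liver, so the heart rank was the highest without the height being so. An intronic element 4806 bp before the first of the principal starts ranked 87.1 and 94.8 in muscle, 91.6 and 90.6 in spleen and 82.4 and 80.7 in lung, and was at 47.7 and 76.3 in heart.

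Tnnt2 had a cluster of heart elements behind the gene. Elements 5503, 5962 and 6974 bp after its last start ranked 86.9, 81.6 and 86.5 in fed heart and 82.1, 88.9 and 69.6 in fasting heart. The first and the third were heart-only, and the second was also listed in fasting brown adipose tissue, at 4.18 with 15 tags. They held 98 to 133 tags in heart, more than the 89 and 78 at the Tnnt2 start. The second, which had the highest single rank of the cluster, holds none of the 6 motifs and is printed on the plus strand.
Tnnt2 (chr1:135855312-135855512, heart): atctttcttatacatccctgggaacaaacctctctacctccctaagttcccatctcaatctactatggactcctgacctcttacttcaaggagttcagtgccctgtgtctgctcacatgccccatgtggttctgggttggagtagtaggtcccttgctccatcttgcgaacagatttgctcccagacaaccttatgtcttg

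**Figure D4:**
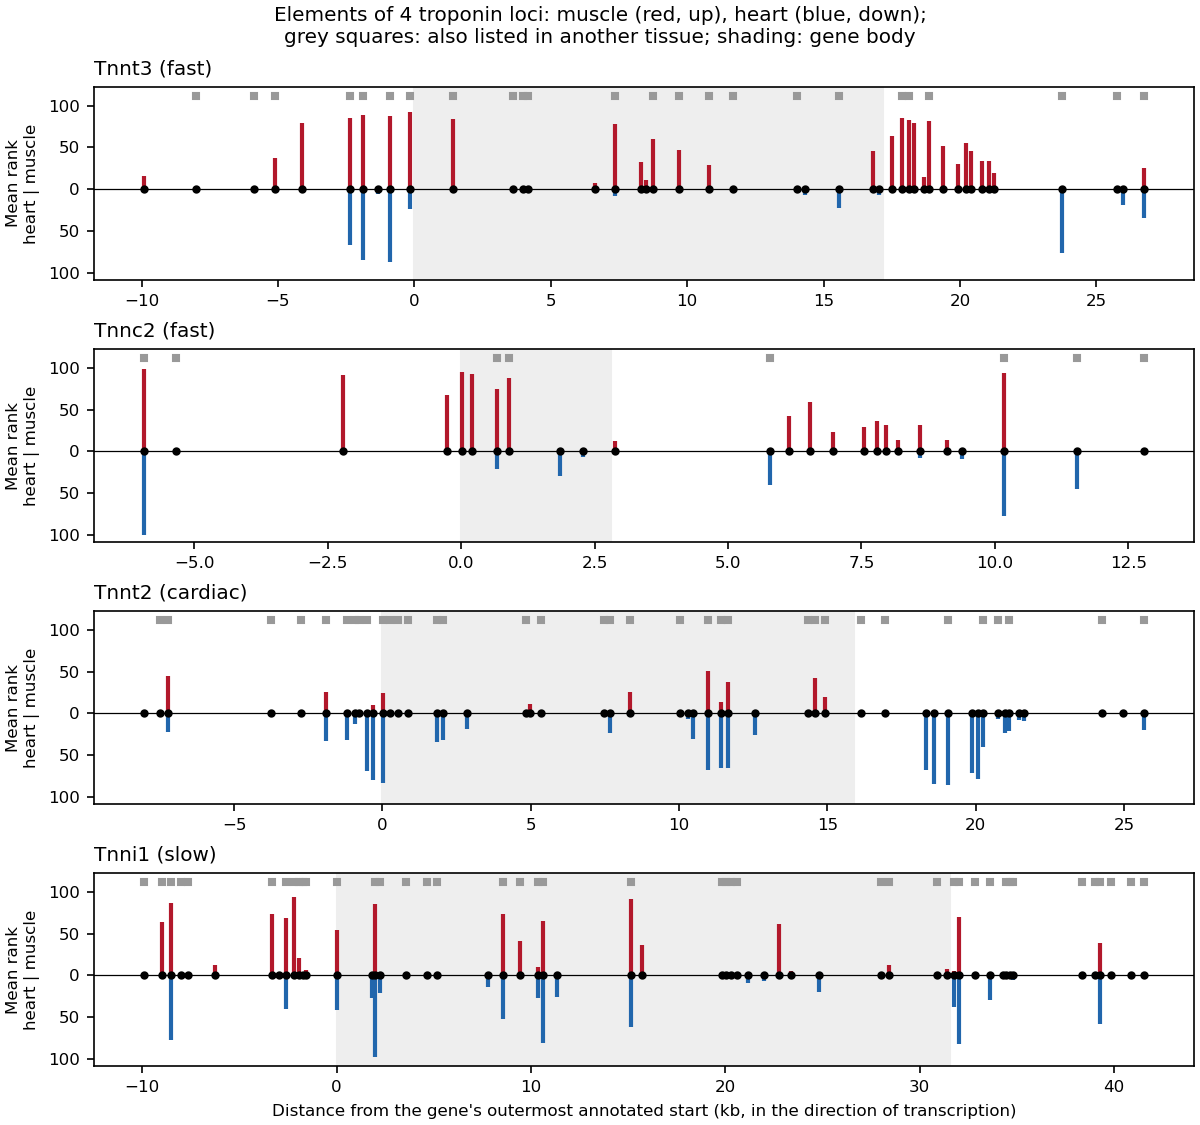
Elements along the Tnnt3, Tnnc2, Tnnt2 and Tnni1 loci (dots), placed by distance in kb from the outermost annotated start in the direction of transcription, with the mean rank of the fed and fasting library upwards for muscle (red) and downwards for heart (blue); the gene body is shaded and grey squares mark elements also listed in another tissue. Red bars without blue ones stand behind Tnnt3 and around Tnnc2, and blue bars without red ones stand behind Tnnt2.

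Tnnt1 and Tnni3 shared heart sites as well. An element 299 bp before the outermost Tnnt1 start was heart-only, at 84.8 fed and 78.9 fasting with 92 and 72 tags. An element in an intron of Tnni3 that overlaps coding sequence of Dnaaf3 was also heart-only, at 84.9 fed and 12.4 fasting. Tnnc1 had heart-only elements 62 bp before its start and 902 bp after it, the latter intronic at 67.2 fed and 56.4 fasting.

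The local background was high around these genes. The expected tags at the muscle summits of the fast genes were 94.2 to 134.5 in fed and 114.8 to 207.6 in fasting muscle, where the genome backgrounds were 6.39 and 10.56. At the heart summits of Tnni3, Tnnt1, Tnnt2 and Tnnc1 they were 26.6 to 33.8 fed and 24.5 to 33.9 fasting, where the genome backgrounds were 4.92 and 5.84. The fold over the expected tags was therefore 3.42 to 5.76 for the fast genes in muscle and 1.75 to 3.26 for these 4 genes in heart.

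Ranks in fasting and fed libraries were then compared. In muscle, no gene moved by 10 points or more within 3 kb of a start, and in heart 2 did. Across the 8 tissues the change (fasting minus fed) was tested by a two-sided exact sign-flip permutation test, whose smallest possible p is 0.0078. The tissues of a state came from the same mice, so the p of this test speaks of these pools only. None of the 8 genes had p below 0.05, where 1.58% of all genes were higher and 3.14% lower in fasting at that threshold. The smallest exact permutation p was 0.0625, for Tnnc2 and Tnnt1. The mean changes were -10.1 points for Tnnc2 (lower in 5 tissues, higher in 1), -13.5 for Tnnt3 (lower in 7, higher in 1; p = 0.195 in the same exact test) and -8.50 for Tnnt2 (lower in 5, higher in 3). Tnni1 and Tnnt1 changed by -2.94 and -3.13 points, and Tnni2, Tnni3 and Tnnc1 by 0.017, -0.355 and -0.228. Without white adipose tissue, the 1 tissue in which Tnnt3 was higher, its change was -19.5 points. All 7 remaining changes were lower, which by itself gives the smallest exact permutation p that 7 tissues allow, 0.0156. That p was thus fixed by the choice of the tissue left out, and no conclusion is drawn from it. In extended gene bodies again none of the 8 genes passed, where 1.65% of all genes were higher and 3.54% lower. Over all genes, no promoter p stayed below 0.913 after Benjamini-Hochberg adjustment.

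**Figure D5:**
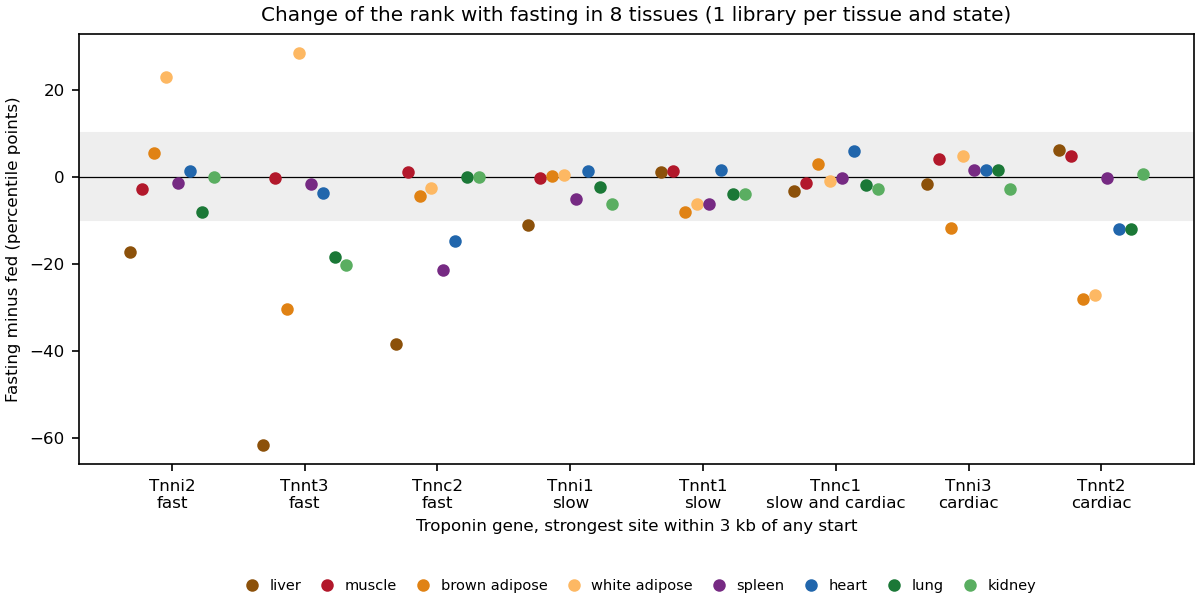
Change of the rank from fed to fasting (percentile points, strongest peak within 3 kb of any start) for each troponin gene, with 1 point per tissue from 1 library in each state and the band of less than 10 points shaded. Muscle points stay in the band for all 8 genes, and the Tnnt3 points run from -61.6 in liver to 28.3 in white adipose tissue.

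Within single tissues, 16 of the gene and tissue pairs moved by 10 points or more, 14 of them downwards. The direction of such moves was not counted over all genes, so no conclusion is drawn from it. The median change over all genes with a listed peak ran from -0.130 points in brown adipose tissue to 0.026 in kidney. In liver 4 of 8 genes with a listed peak did so (Tnni1, Tnni2, Tnnt3 and Tnnc2, all lower in fasting), where 25.3% of all genes with a listed peak moved that far. In brown adipose tissue it was 3 of 8 (Tnni3, Tnnt2 and Tnnt3, all lower) against 15.6%. In white adipose tissue Tnni2 and Tnnt3 were higher and Tnnt2 lower, against 18.7%. Heart had 2 (Tnnt2 and Tnnc2, both lower) against 19.6%, and lung 2 of 7 (Tnnt2 and Tnnt3, both lower) against 12%. Spleen had 1 (Tnnc2, lower) against 19.1%, kidney 1 of 6 (Tnnt3, lower) against 9.47%, and muscle none of 8 against 11.7%.

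At principal starts, 18 gene and tissue pairs moved by 10 points or more. Muscle had 2 of 5 genes with a listed peak (Tnnt1 at 17.7 and Tnnt2 at -20.6 points, background 12.1%). Heart had 4 of 7 (Tnnt2 at -12.0, Tnnt3 at -47.9, Tnnc1 at -29.9 and Tnnc2 at 43.2 points, background 19.8%). The counts were 4 of 4 in liver (Tnni1 higher, and Tnni3, Tnnt2 and Tnnc2 lower; 24.8%), 2 of 3 in brown adipose tissue (15.4%), 1 of 2 in white adipose tissue (18.5%), 4 of 4 in spleen (Tnni1 higher, and Tnni2, Tnnt2 and Tnnc2 lower; 19.3%), 0 of 1 in lung (12.1%) and 1 of 2 in kidney (10%).

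Several of these moves were those of small peaks. The change of -61.6 points for Tnnt3 in liver was the loss of a single peak of 15 tags, and that of -38.4 for Tnnc2 in liver the loss of one of 12 tags. In white adipose tissue the Tnnt2 rank went from 89.0 to 61.8. It was carried in the fed library by an element 1885 bp before the start with 163 tags, 16.3 times the background, which was not listed in fasting white adipose tissue. In heart the Tnnt2 rank went from 89.6 to 77.6 with 89 and 78 tags, 18.1 and 13.4 times the background. The depth of brown and white adipose libraries was lower in fasting (6.76 against 12.77 and 5.87 against 10.02 background tags), while that of liver hardly differed (2.82 against 2.80). The part of depth in these changes was not tested.

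For each gene, the 3 protein-coding genes with the most similar 16 ranks in the 3 kb windows were looked up by Pearson's r, leaving out genes with a start within 20 kb. Among the genes most like Tnnc2 were Ccl7 (r = 0.939) and Acta1 (0.908), the latter being skeletal actin. Tnni2 was most like Disc1 (0.947), Pygm (0.940), the glycogen phosphorylase of muscle, and Fam124b (0.939). Tnnt3 was most like Daglb (0.893), Hdac9 and Rcsd1 (both 0.888). The values for the others began at 0.947 for Tnni1 with Hip1 (then Camta2 and Tspan3), 0.941 for Tnnt1 with Arhgef19 (then 9230102O04Rik and Glis2), 0.924 for Tnni3 with Mthfd1l (then Anxa1 and Lrrc8c), 0.856 for Tnnt2 with Hpca (then Rgs12 and Ifit3b) and 0.841 for Tnnc1 with Rasgef1c (then Ly86 and Atad5). These 16 points share mice, libraries and depth, and the 2 states of a tissue are not independent, so the values only describe. Among the members at principal starts, r was 0.96 for Tnnt1 with Tnnc1, 0.93 for Tnnt1 with Tnni3, and 0.90 for Tnni3 with Tnnt2. For the pairs of fast genes it was 0.55 (Tnnt3 with Tnnc2), 0.40 (Tnni2 with Tnnt3) and 0.14 (Tnni2 with Tnnc2), and for the slow pair Tnni1 and Tnnt1 it was -0.19. At principal starts Tnnc1 was listed in 2 of the 16 libraries, Tnnt1 and Tnni3 in 3 each and Tnni1 in 5. Most points of these 4 genes are therefore ranks of 0, and the highest r values rest mainly on the 2 heart libraries.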

How the data were processed

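The 8 genes, the gene lists and the tests were chosen with earlier results of these data known. Per the labels and the study's methods, the authors aligned the reads of each pooled library to GRCm38 with Bowtie2, left out duplicates and mitochondrial reads, corrected read ends for the Tn5 offset, and had MACS2 list peaks at a loose p, of which about 300000 per library were kept; the versions are not given in the sources used here. The deposited lists give, per peak, a fold enrichment over the expected tags, a -log10 p, a -log10 q and a display score, none of them scaled between libraries. The score and the q values were not used for ranks. Each peak was ranked by -log10 p within its list, and a gene took the highest rank in its window. Tags were solved from the fold and the p of each peak and came out whole within 0.01 for 100% of every 30th peak.

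All 8 genes are named, with the 3 genes most like each by Pearson's r, neighbours with a start in the window, and the highest and lowest gene of each list. A marker list and a gene among those most like Tnnc2 are not reported here. Tissues were compared by exact permutation and fed with fasting by exact sign flips, with Benjamini-Hochberg adjustment over 21951 genes. With 1 library per group, p-values measure the spread between tissues only, and the tissues of a state share their mice. The alternatives were other windows and sets of starts, 1 peak per region, ranks by fold, the 50000 strongest peaks, q under 0.01, gene bodies without extension and leaving out each tissue. The 500 bp window at principal starts, by p and by fold, was chosen after seeing the data. The permutation and sign-flip tests, the search for the strongest peak in a window and the solving of tags were tested on simulated data. The other steps were not. All calculations were run in Python 3.11.15 with numpy 2.4.6, scipy 1.17.1, pandas 2.3.3 and matplotlib 3.10.9.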

Additional observations from a re-analysis of the deposited data

Results flagged for a closer look

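For 2 fast genes, the change from fed to fasting within 3 kb of a start had opposite signs in white adipose tissue and liver. Tnni2, fast troponin I, was 22.8 points higher in fasting white adipose tissue and its liver value was -17.2. Tnnt3, fast troponin T, was 28.3 points higher in fasting white adipose tissue and its liver value was -61.6. Each value compares 1 library with 1 library, and the difference between the tissues was not tested.

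Tnni3, cardiac troponin I, had a change of -11.8 points in brown adipose tissue, which stood apart from its changes in the other 7 tissues. Chance sets 1 value apart in this way in about 1 of 20 groups.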

How the results depend on the processing

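Fed and fasting libraries were compared as pairs within each tissue, and the labels carry no replicate numbers to pair on. Within 3 kb, 2 genes stood out in muscle and heart. That count was 1 with a 1000 bp window, with protein-coding starts and with 1 peak per region, 0 when ranked by fold, and 2 to 3 when each tissue was left out. The fasting count of 0 became 2 with protein-coding starts (Tnni1 and Tnnt1) and was 0 to 1 without each tissue. In gene bodies the muscle and heart count of 2 became 0 by fold and 0 without extension and was 2 to 3 without each tissue, and the fasting count of 0 became 1 by fold and was 0 to 1 without each tissue. Muscle above heart went from 1 gene to 2 (1000 bp) and 3 (principal starts, by p and by fold). Heart above muscle went from 1 gene (Tnnt2) to 2 at 1000 bp and by nearest start only (Tnnt2, Tnnc1), 2 with 1 peak per region (Tnnt2, Tnnt1), 2 by fold, where the fast genes Tnni2 and Tnnt3 took the place of Tnnt2, and 4 at principal starts. It stayed at 1 with another gene among the 50000 strongest (Tnnt1) and at principal starts by fold (Tnni3). Changes of 10 points within a tissue went from 16 to 7 among the 50000 strongest peaks. Keeping only q under 0.01 changed none of these counts. The causes were not tested.

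Signs turned for several single genes. For muscle and heart against the rest in windows, Tnni1 gave -0.238 (1000 bp) and -12.6 (principal starts), Tnnt1 27.5 (protein-coding starts) and 45.04 (principal starts), and, by fold, Tnni3 -4.48, Tnnt2 -22.1 and Tnnc1 -5.37. At principal starts by fold, Tnni1 gave -15.5 and Tnnt1 25.1. In bodies, Tnnc2 gave -0.058 (1 peak per region) and -2.34 (fold), Tnni2 -3.87 (fold) and Tnnt2 -20.6 (fold), and without extension Tnni3 gave 39.0, Tnnt1 -1.33 and Tnnc1 30.9. For fasting, Tnni1 gave 5.97 (1000 bp) and 4.87 (principal starts), Tnni2 -1.02 (1000 bp), -0.361 (fold), -10.9 (50000 strongest) and -1.19 (principal starts), Tnni3 0.216 (1 peak per region), 0.553 (fold) and 1.34 (50000 strongest), Tnnc1 1.94 (fold) and Tnnt1 1.499 (principal starts), and at principal starts by fold Tnni1 gave 10.4, Tnni2 -7.40 and Tnnt1 2.55. With each tissue left out, the ranges that crossed 0 were, for fasting, -3.24 to 2.48 (Tnni2), -1.09 to 1.29 (Tnni3) and -1.11 to 0.21 (Tnnc1). For muscle and heart in windows they were -1.83 to 6.96 (Tnni3), -6.88 to 4.22 (Tnnt1), -15.1 to 18 (Tnnt2) and -0.900 to 0.941 (Tnnc1). In bodies they were -3.75 to 1.24 (Tnni3), -16.6 to 21.5 (Tnnt2) and -0.509 to 0.507 (Tnnc2).

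Depth limits these values, since a list stops at a fixed length and a shallow library lists sites of 10 to 15 tags. A gene without a listed peak is not shown to be closed.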
